A study of Mus musculus with 16 samples.

Results

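The miR-181 family was followed across dorsal skin of mice with or without a working Ppard gene, which encodes the nuclear receptor PPARβ/δ, and with or without chronic UVB. The members were chosen by name on the array and not by their signal: mmu-miR-181a, mmu-miR-181b, mmu-miR-181c and mmu-miR-181d are 4 of the 577 miRNAs measured. The family itself was picked with results of these arrays already known, so the adjusted p-values below describe a fit over all tested miRNAs and are no independent support for the choice. The 16 arrays fell into 4 groups of 4, called WT no UV and KO no UV (not irradiated), and WT UV and KO UV (irradiated). WT animals were Ppard+/+ and KO animals Ppard-/-, both on the mixed SKH1-C57/Bl6-SV129 background, with the knockout present in every tissue. Irradiated animals received 70 mJ/cm2 of UVB per exposure over 12 weeks, and controls none. According to the methods the mice were young adult hairless females, the genotypes were littermates, the controls were sham-handled and matched for age, and the irradiated skin was free of lesions. Each array carried total RNA of a single animal, so n counts animals.

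MicroRNAs guide Argonaute proteins to messenger RNAs, mainly through their seed, the stretch near the 5′ end that pairs with the target. Members of a family share the seed and so can reach many of the same messages, while the bases outside it can differ between members. miR-181a is best known for tuning T-cell receptor sensitivity in the thymus, miR-181b for restraining NF-κB signalling in endothelium, and the family also acts in muscle differentiation and has been described in senescing keratinocytes. Dorsal skin contains all of these cell types, and a bulk RNA sample cannot tell fewer cells of a type from less RNA per cell.

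The mature strands are shown first because the comparisons turn on where they match and where they differ. They were taken from the RefSeq table (build GRCm38.p6), are written 5′ to 3′, and have the seed, bases 2 to 8, in capitals.
miR-181a: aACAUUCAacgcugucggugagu
miR-181b: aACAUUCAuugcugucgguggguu
miR-181c: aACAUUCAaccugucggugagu
miR-181d: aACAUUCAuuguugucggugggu
All 4 carried the seed ACAUUCA, and 0 of the other mature mouse names in a table of 1679 did. Outside the seed the family split into 2 like pairs. miR-181a and miR-181c had 22 identical bases and differed by 1 unpaired base, and miR-181b and miR-181d had 22 identical bases with the substitution C12U from b to d and 1 unpaired base at the end. Counted from base 1 at the 5′ end, miR-181a differed from miR-181b by A9U, C10U and A21G.

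This likeness crosses the genes. miR-181a and miR-181b come from the hairpin genes Mir181a-1 and Mir181b-1 on chromosome 1 (mature strands at chr1:137966468-137966490 and chr1:137966650-137966673, plus strand, 97 bases between hairpins, with no gene spanning them in the table). A further copy of each, Mir181a-2 and Mir181b-2, lies on chromosome 2 (chr2:38852741-38852763 and chr2:38853845-38853868, plus strand, 1019 bases between hairpins) within the span of Nr6a1, which encodes an orphan nuclear receptor, and its long noncoding partner Nr6a1os. An array of mature strands cannot assign miR-181a or miR-181b to either copy. miR-181c and miR-181d come from Mir181c and Mir181d on chromosome 8 (chr8:84178924-84178945 and chr8:84178759-84178781, minus strand, 85 bases between hairpins, no spanning gene).

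Each member was read by 2 probes of 10 spots each, which by the coordinates in the files reach from the 3′ end of the miRNA to different depths. The longer probe of each is shown in capitals on the mature strand, because the UV comparison turns on which probe is read.
miR-181a: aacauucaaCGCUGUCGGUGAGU
miR-181b: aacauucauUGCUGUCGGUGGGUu
miR-181c: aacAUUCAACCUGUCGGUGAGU
miR-181d: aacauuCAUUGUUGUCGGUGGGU
The other probe of each member stopped 1 base short of this. The longer probe of miR-181a shared a run of 12 bases with miR-181c, and that of miR-181b a run of 11 with miR-181d. How far each probe also bound the other members was not tested. The total gene signal of a member was the sum of its 2 probe signals, and the probes differ in reach, so no member's level was set against another's.

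Summed over miRNAs, the arrays held 170979 to 395200 intensity units, and 184 to 266 miRNAs were detected per array. KO no UV arrays reached the highest values, at 254694 to 395200 units, but overlapped those of both WT groups. Irradiated and control skin lay on different slides, so UV and slide cannot be told apart in any UV comparison, and within the irradiated slide the same holds for genotype and row, since WT filled row 1 and KO row 2. The irradiated slide had a mean local background of 126 units, against 67.3 on the other. The median signal of the 292 miRNAs that no array detected was -1.99 and -1.95 units on these slides after background subtraction. The slides were not alike in spread or detection. The SD of the negative-control spots averaged 10.6 units on the irradiated slide and 5.19 on the other. On the irradiated slide 184 to 206 miRNAs were detected per array, against 216 to 266, with no overlap. Ppard mRNA is not measured on a miRNA array, and the genotypes were taken as labelled.

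All 4 members were detected on all 16 arrays, and none of their 1280 spots was saturated. They lay in the middle of the detected range. By unnormalized signal, which was highest for rank 1, miR-181a ranked between 86 and 103 of 577, miR-181b between 112 and 126, miR-181c between 123 and 147, and miR-181d between 119 and 137. The error that the scanner software gives for a single value averaged between 7.59% and 12.7% of the signal by member and group. The passenger strands that the array holds were close to background: miR-181a-1* was detected on 1 of 16 arrays, in KO no UV, and miR-181a-2* on 0.

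The normalized signals below come from quantile normalization over the 16 arrays, in intensity units, and differences are in log2 of these. Arrays are given in the order of their replicate numbers, which have no meaning as a series. miR-181a, the member tied to T-cell receptor signalling, was at 267, 231, 258 and 298 units in WT no UV, and at 327, 215, 250.0 and 250.0 in KO no UV. After irradiation it was at 198, 215, 243 and 258 units in WT and at 181, 223, 202 and 250.0 in KO. The group means ran, from highest to lowest, from WT no UV through KO no UV and WT UV to KO UV, and every neighbouring pair in that order overlapped.

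miR-181b, its neighbour in both clusters, was at 109.9, 124, 124 and 133 units in WT no UV, and at 140.0, 124, 137 and 124 in KO no UV. It was at 114, 106, 112 and 118 units in WT UV and at 103, 129, 137 and 118 in KO UV. Its 4 groups were the most alike of the family by mean, from 6.81 ± 0.07 (log2, SD, n = 4) in WT UV to 7.04 ± 0.09 in KO no UV, and neighbouring groups overlapped.

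miR-181c was at 84.3, 66.2, 82.2 and 75.1 units in WT no UV, and at 90.3, 75.1, 72.9 and 86.2 in KO no UV. It was at 92.2, 94.1, 97.3 and 109.9 units in WT UV and at 88.9, 95.6, 70.9 and 109.9 in KO UV. All 4 WT UV arrays lay above all 4 WT no UV arrays, while in KO the irradiated arrays spread from below the controls to above them.

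miR-181d, the other product of the chromosome 8 cluster, was at 87.5, 84.3, 106 and 94.1 units in WT no UV, and at 103, 98.9, 90.3 and 92.2 in KO no UV. It was at 106, 114, 109.9 and 114 units in WT UV and at 114, 114, 118 and 114 in KO UV. The KO UV arrays lay above every KO no UV array. In WT the lowest irradiated array tied with the highest control array, and the other irradiated arrays lay above all controls. Quantile normalization hands out values by rank, which is why 3 of the KO UV arrays hold the same value, and their SD of 0.03 (log2, n = 4) is not a full measure of spread.

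**Figure D1:**
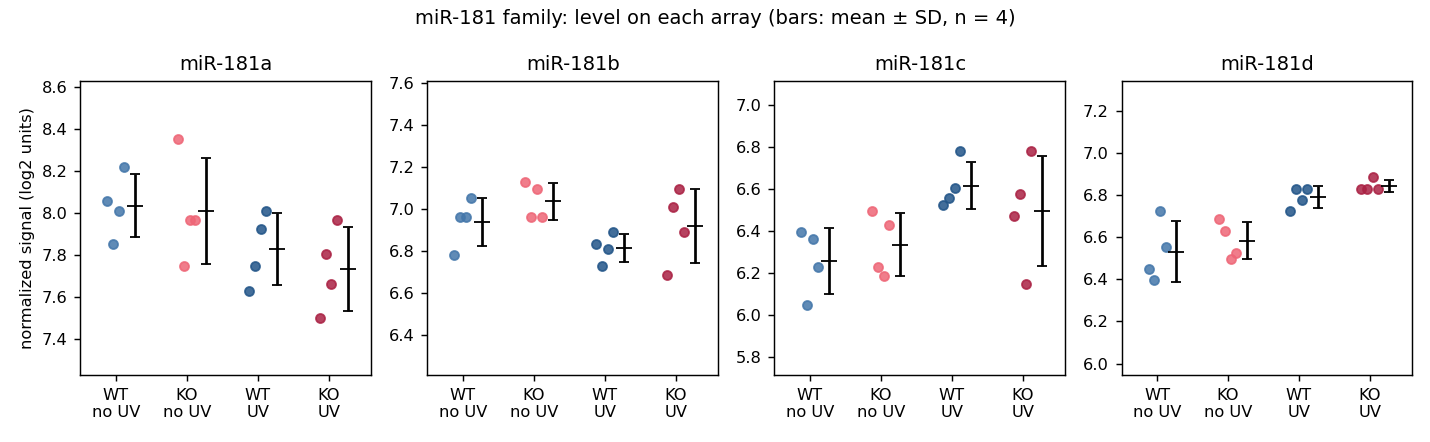
Normalized signal of each miR-181 member on each array (log2 units, each panel spanning 1.4 log2 units around its own range), by group; points are arrays and bars the mean ± SD of 4 arrays. miR-181d sits higher in both irradiated groups, at means of 6.79 and 6.85 against 6.53 and 6.59, and miR-181c does so in WT, while the irradiated means of miR-181a (7.83 and 7.73) lie under its control means (8.04 and 8.01).

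The comparison of KO with WT skin asked whether loss of PPARβ/δ changes the family. Without irradiation 0 of the 4 members were called (limma, Benjamini-Hochberg adjusted p under 0.05), beside 0% of the 228 miRNAs tested, of which 36 had an unadjusted p under 0.05. The KO minus WT differences were -0.03 for miR-181a (95% interval -0.32 to 0.27), 0.10 for miR-181b (-0.08 to 0.28), 0.08 for miR-181c (-0.19 to 0.35) and 0.05 for miR-181d (-0.08 to 0.19). The intervals of miR-181b and miR-181d leave out a rise of over 0.28 and 0.19, and those of the other 2 are wider. Adjusted p-values were 0.640 to 1 by limma and exact permutation p-values 0.286 to 0.857, where the smallest that 4 against 4 arrays can give is 0.0286. With no normalization all 4 members were higher in KO, by 0.52 to 0.64, but so were most miRNAs, with a median of 0.52 over the 228.

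After irradiation 0 of the 4 members were called between the genotypes, beside 2.19% of the 228, where 21 were under 0.05 before adjustment. KO minus WT was -0.10 for miR-181a (-0.39 to 0.20), 0.11 for miR-181b (-0.07 to 0.29), -0.12 for miR-181c (-0.39 to 0.15) and 0.05 for miR-181d (-0.08 to 0.19). Limma adjusted p-values were 0.808 to 0.951, and every exact permutation p was at least 0.286. No member's genotype difference passed either test, in either state.

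UV minus none asked which miRNAs differ after chronic irradiation. In WT skin miR-181d rose by 0.26 (SE 0.06, interval 0.12 to 0.40, limma adjusted p = 0.0109), its log2 signal going from 6.53 ± 0.15 to 6.79 ± 0.05 (SD, n = 4), with an exact permutation p of 0.0571. miR-181c was higher by 0.36 (SE 0.12, interval 0.09 to 0.63), from 6.26 ± 0.16 to 6.62 ± 0.11, which failed the correction (limma adjusted p = 0.0622), although its arrays did not overlap and its exact permutation p of 0.0286 is the smallest possible. The members of the other clusters went the other way: miR-181a was at -0.21 (-0.50 to 0.09, limma adjusted p = 0.334) and miR-181b at -0.12 (-0.30 to 0.05, limma adjusted p = 0.342). Neither passed the test. The call of 1 member among 4 stands beside 16.2% called of the 228, and so does not set the family apart.

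In KO skin miR-181d rose by 0.26 again (SE 0.06, interval 0.13 to 0.40, limma adjusted p = 0.0115, exact permutation p = 0.0286), its log2 signal going from 6.59 ± 0.09 to 6.85 ± 0.03 (SD, n = 4). miR-181c was at 0.16 (-0.11 to 0.43, limma adjusted p = 0.363), miR-181a at -0.28 (-0.57 to 0.02, limma adjusted p = 0.146) and miR-181b at -0.12 (-0.29 to 0.06, limma adjusted p = 0.331). Here 29.8% of the 228 were called, so 1 member of 4 is near the background. The median over the 4 members was 0.07 in WT and 0.02 in KO, beside 0 over all tested miRNAs in each. The WT and KO contrasts share no arrays but share the same slides.

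**Figure D2:**
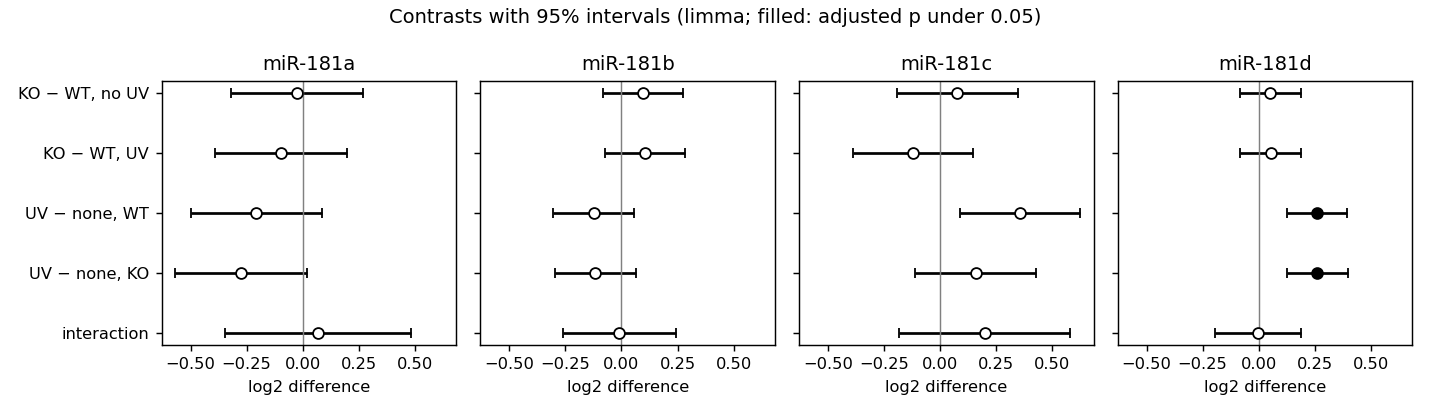
Log2 differences of each member in the 5 contrasts (x axis, log2; points are limma estimates from 16 arrays, bars 95% intervals, filled points have an adjusted p under 0.05). Both UV contrasts of miR-181d are filled, at 0.26 each, and the interval of miR-181c in WT (0.09 to 0.63) lies off 0 although the point is open.

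The rise of miR-181d depended on how the arrays were brought to a common scale. It was called from the authors' own normalized values (0.25 in WT, 0.24 in KO, limma adjusted p of 0.0414 and 0.0366) and from the processed spot signals (0.24 and 0.28). With each array set to the 75th percentile of its miRNAs that all 16 arrays detected, it was 0.03 and 0.07 (limma adjusted p of 0.929 and 0.691), and with the 75th percentile over all miRNAs it was 0.15 and 0.18 (limma adjusted p of 0.345 and 0.243). With quantiles taken within each slide it was -0.01 and -0.02 (limma adjusted p of 0.953 and 0.891).

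Under the same scalings miR-181b, not miR-181d, was the member called. It was lower after UV by -0.39 in WT and -0.35 in KO with the 75th percentile of the detected miRNAs (limma adjusted p of 0.0252 and 0.0325), by -0.26 and -0.25 with that of all miRNAs (limma adjusted p of 0.0334 and 0.0362), and by -0.44 and -0.41 with quantiles within each slide (limma adjusted p of 0.00173 and 0.00298). miR-181a was called lower as well under some of them, at -0.39 in KO with the 75th percentile of the detected miRNAs (limma adjusted p = 0.0320) and at -0.39 in WT and -0.45 in KO with quantiles within each slide. The median over all 228 moved by -0.16 in WT and -0.12 in KO with quantiles within each slide, and by -0.10 and -0.04 with the 75th percentile of the detected miRNAs. In all of these settings miR-181c and miR-181d lay above miR-181a and miR-181b. Scaling to either 75th percentile shifts all members of an array by the same log2 amount. Their order therefore could not differ between those scalings, and its agreement there is no separate result. Quantiles within each slide could change the order. There miR-181c and miR-181d were at 0.15 and -0.01 in WT and at -0.055 and -0.02 in KO, still above miR-181a and miR-181b.

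**Figure D3:**
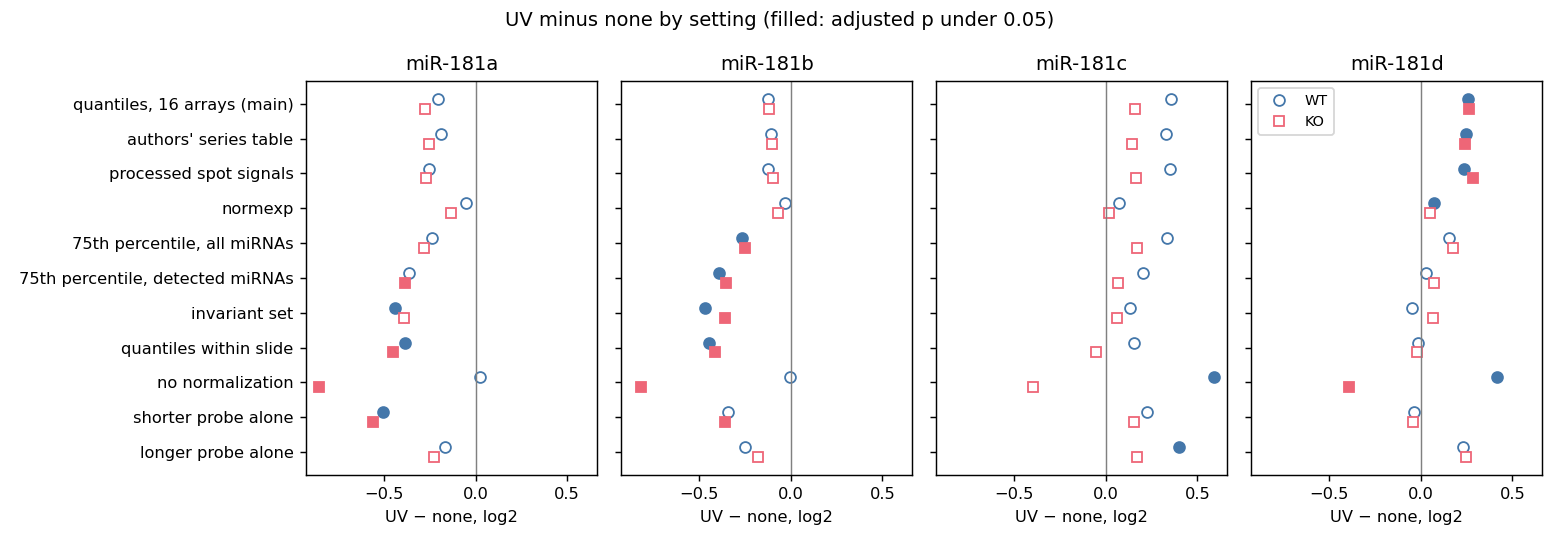
UV minus none (x axis, log2) for each member under 11 ways of making the values (rows), in WT (circles) and KO (squares); filled symbols have a limma adjusted p under 0.05. miR-181d is filled on the higher side in WT and KO in the main fit, with the processed spot signals and with the authors' values. By normexp it is filled in WT and open in KO (0.05, limma adjusted p = 0.0704), and by either probe alone it is open. With no normalization it is filled at 0.41 in WT and at -0.39 in KO. With quantiles within the slide it is near 0 (-0.01 and -0.02), where miR-181b is filled on the lower side (-0.44 and -0.41).

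Ratios between members on the same array need no scaling between arrays, and so describe what the settings share. A ratio here is that of unnormalized total gene signals, it shows unequal change and not which member changed, and it is no ratio of abundances. miR-181d over miR-181b, the pair that differs by C12U, was 0.722, 0.629, 0.839 and 0.735 in WT no UV and 0.720, 0.765, 0.663 and 0.703 in KO no UV. After irradiation it was 0.935, 1.03, 0.949 and 0.980 in WT and 1.04, 0.907, 0.891 and 0.995 in KO. All 8 irradiated arrays lay above all 8 control arrays, and the ratio was 1.34 times as high in each genotype (0.42 in WT and 0.43 in KO on the log2 scale).

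miR-181c over miR-181a, the other like pair, gave the same split between the slides. It was 0.283, 0.282, 0.304 and 0.259 in WT no UV and 0.259, 0.343, 0.280 and 0.336 in KO no UV, against 0.438, 0.434, 0.379 and 0.422 in WT UV and 0.448, 0.418, 0.362 and 0.435 in KO UV. The ratio was 1.48 times as high after UV in WT and 1.37 times in KO, and neither genotype's arrays overlapped. The other cross-cluster pairs, miR-181d over miR-181a and miR-181c over miR-181b, were 1.31 and 1.51 times as high after UV in WT with no overlap. In KO they were 1.38 and 1.34 times as high but overlapped, with a lowest irradiated array of 0.449 against a highest control array of 0.474 for the former, and 0.590 against 0.663 for the latter.

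Members of the same cluster kept their ratio more closely. In WT, miR-181b over miR-181a was 0.488 ± 0.072 (SD, n = 4) without UV and 0.476 ± 0.021 after it, and in KO 0.528 ± 0.071 and 0.540 ± 0.067. miR-181d over miR-181c was 1.26 ± 0.15 and 1.11 ± 0.06 in WT and 1.24 ± 0.13 and 1.25 ± 0.20 in KO. For both pairs all groups overlapped. Between genotypes no ratio of any of the 6 pairs separated the arrays, with or without UV. The probes split in the same way. Those of miR-181a and miR-181b span 13 to 14 bases, of which 61.5% to 69.2% are G or C. Those of miR-181c and miR-181d span 16 to 19 bases, of which 47.4% to 52.9% are. Cluster and probe design therefore cannot be told apart in these ratios. The ratios are a description with no test, since irradiation and slide cannot be told apart either.

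**Figure D4:**
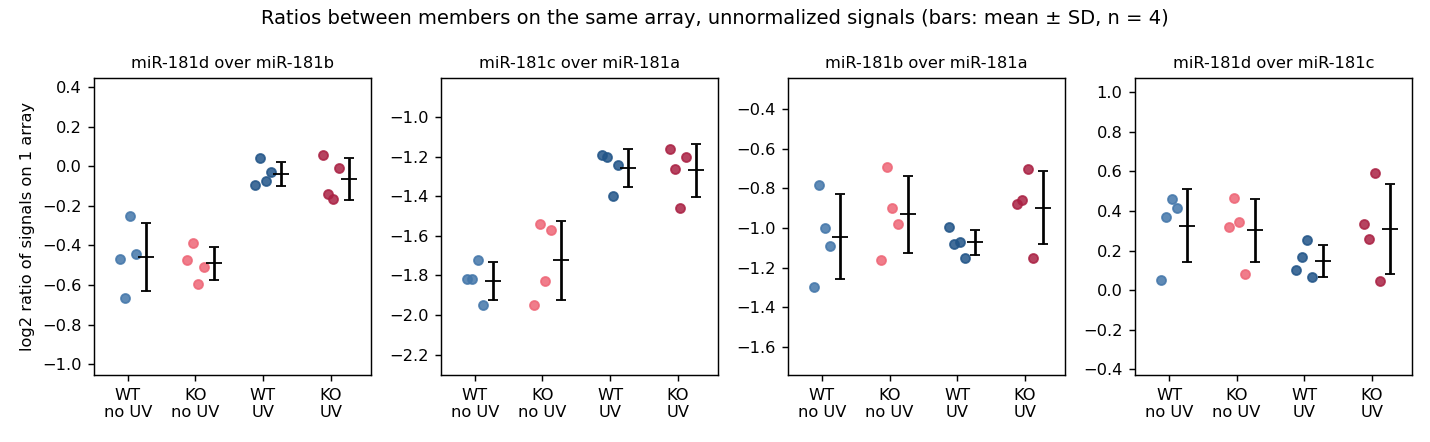
Log2 ratio of the unnormalized signals of 2 members on each array (y axis, each panel spanning 1.5 log2 units), by group; bars are the mean ± SD of 4 arrays. Of the 4 pairs across clusters, the 2 plotted, miR-181d over miR-181b and miR-181c over miR-181a, sit higher on every irradiated array, by 0.42 to 0.57 in the mean, and the other 2 overlap in KO; within a cluster, miR-181b over miR-181a and miR-181d over miR-181c overlap.

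The 2 probes of miR-181d and of miR-181a did not move alike between the slides, while those of miR-181c did. The longer probe of miR-181d gave 49.9 ± 4.0 units in WT no UV and 72.7 ± 11.9 in WT UV (unnormalized, SD, n = 4), and the shorter gave 30.5 ± 5.4 and 34.8 ± 5.4. In KO the longer gave 75.8 ± 12.7 units without UV and 62.2 ± 5.3 after it, and the shorter 47.4 ± 10.4 and 30.8 ± 4.1. The longer over shorter ratio was 1.66 ± 0.18 and 1.62 ± 0.17 in WT and KO without UV and 2.09 ± 0.12 and 2.04 ± 0.26 after it, and its arrays overlapped in KO only.

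The same ratio of miR-181a was 2.96 ± 0.04 without UV and 3.52 ± 0.35 after it in WT, and 2.91 ± 0.13 and 3.77 ± 0.18 in KO, with no overlap in either genotype. For miR-181c it was 1.73 ± 0.15 and 1.83 ± 0.07 in WT and 1.77 ± 0.08 and 1.78 ± 0.15 in KO, and the arrays overlapped. A shift of this sign was common on the array. Of 146 other miRNAs with 2 probes of unequal reach that were detected on all arrays, 120 had a higher ratio after UV in WT and 118 in KO, with a median shift of 0.09 and 0.10 on the log2 scale. miR-181d shifted by 0.34 in WT and 0.33 in KO, which 8 and 13 of the 146 reached. For miR-181a the shifts were 0.245 and 0.374, reached by 16 and 7. For miR-181b they were 0.156 and 0.217, reached by 38 and 30. Those of miR-181c were 0.0851 and 0.00816, reached by 76 and 115.

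Read by the shorter probe alone, miR-181d was at -0.04 after UV in each genotype (limma adjusted p of 0.844 and 0.803), and by the longer probe alone at 0.23 in WT and 0.25 in KO (limma adjusted p of 0.117 and 0.0716). Neither probe alone gave the call of miR-181d. By its shorter probe miR-181a was called lower after UV, by -0.51 in WT and -0.56 in KO (limma adjusted p of 0.0296 and 0.0168). miR-181b was called lower in KO by its shorter probe, by -0.36 (limma adjusted p = 0.0369). By its longer probe miR-181c was called higher in WT, by 0.40 (limma adjusted p = 0.00660). What sets the probes apart between the slides was not tested.

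**Figure D5:**
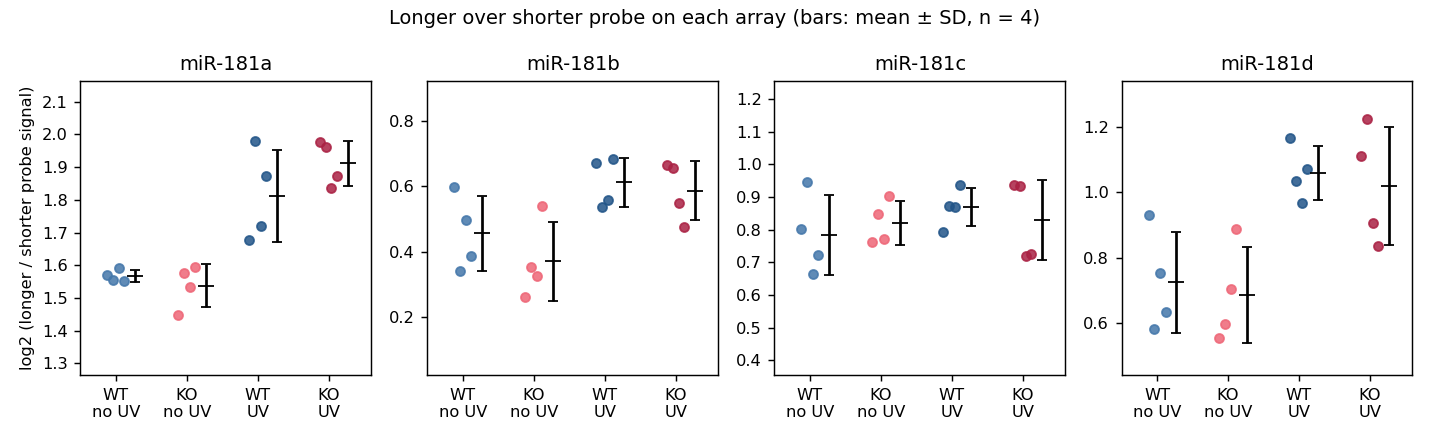
Log2 ratio of the longer over the shorter probe of each member on each array (y axis, each panel spanning 0.9 log2 units), by group; bars are the mean ± SD of 4 arrays. The ratio is higher on the irradiated slide for miR-181a and on average for miR-181d and miR-181b, and the groups of miR-181c overlap.

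The interaction, the UV difference in WT minus that in KO, asked whether WT and KO skin respond unequally. A difference between the slides that is the same for WT and KO drops out of the interaction on the log2 scale. A difference between the rows of the irradiated slide does not, since genotype and row cannot be told apart there. The interaction is taken from the main fit. The interaction was 0.07 for miR-181a (-0.35 to 0.48), -0.01 for miR-181b (-0.26 to 0.24), 0.20 for miR-181c (-0.18 to 0.58) and -0.0017 for miR-181d (-0.19 to 0.19). 0 of the 4 members were called by limma (adjusted p of 0.724 to 1), beside 2.19% of the 228, where 29 were under 0.05 before adjustment. With no normalization all 4 were called, at 0.88, 0.81, 0.99 and 0.81 in the same order, where 138 of the 228 were called and the median over all was 0.77. The UV difference of miR-181c in WT was therefore not shown to differ from that in KO.

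The miRNAs most like miR-181a over the 16 arrays were sought among the 163 others detected on all of them, as a description. They were miR-23a (Pearson's r of 0.769, and 0.649 after subtracting group means), miR-30d (0.698 and 0.696) and miR-24-2* (0.681 and 0.492). For miR-181b they were miR-486 (0.661 and 0.486), miR-378 (0.660 and 0.470) and miR-671-5p (0.599 and 0.480). Within the family, miR-181c with miR-181d gave 0.602 and miR-181a with miR-181b 0.485, whereas miR-181a with miR-181d gave -0.383 and miR-181b with miR-181c -0.451. After subtracting group means the order was another: miR-181a with miR-181c, at 0.062 before, was highest at 0.641, miR-181a with miR-181b was at 0.438, miR-181c with miR-181d at 0.236 and miR-181a with miR-181d at 0.304, and miR-181b with miR-181c stayed below 0 at -0.237. All points share the 2 slides and the normalization.

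Some markers of cell types in skin were also called after irradiation, unequally by cell type and genotype. Of 7 keratinocyte miRNAs 4 were called higher after UV in WT, where 16.2% of the 228 were called in either direction, and 6 in KO, where 29.8% were, with medians of 0.44 and 0.39 beside 0 over all tested. Their summed normalized signal was 21540 to 25480 units in WT without UV and 26080 to 31710 after it, and in KO 22220 to 27760 and 29320 to 43030. Of 7 leukocyte miRNAs 3 were called lower in WT (miR-150 by -1.05, miR-342-3p by -1.39 and miR-146a by -0.45). In KO miR-150 was called lower by -0.56 and miR-155, induced in activated leukocytes, higher by 0.65. Their sum ranged over 5326 to 7081 units in WT without UV and 4147 to 4966 after it, and in KO over 3433 to 5425 and 3485 to 4103.

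All 4 skeletal muscle miRNAs were called lower after UV in KO, by -0.88 to -1.25, and 0 in WT, and in the interaction 0 of the 4 were called (limma adjusted p of 0.0862 to 0.633). Their sum was 40650 to 50330 units in KO no UV, against 20450 to 41170 in WT no UV, 21900 to 25990 in WT UV and 19460 to 24490 in KO UV. Of the 2 endothelial miRNAs, miR-126-3p was called higher in WT, by 0.46, and 0 were called in KO. The other, miR-126-5p, was at -0.24 in WT and -0.55 in KO and did not pass the test in either. In the interaction miR-126-3p was called, at 0.45 (limma adjusted p = 0.0345), where 2.19% of the 228 were. The interaction of miR-126-5p, at 0.31, did not pass (limma adjusted p = 0.825). Of the 3 fibroblast miRNAs on the array, miR-214 was called higher in KO, by 0.32, while miR-199a-5p (-0.25) and miR-199b* (-0.35) did not pass the test there, and 0 were called in WT. The fibroblast median was -0.25 in KO, and the summed signal was 1698 to 2717 units without UV and 1752 to 1967 after it. Of the 2 erythrocyte miRNAs tested, miR-486 was called lower in KO, by -0.86, and did not pass in WT (-0.42). The other, miR-451, was at 0.33 in WT and -0.04 in KO and passed in neither. A further 1, miR-144, was not detected on any irradiated array, where fewer miRNAs were detected in general. The erythrocyte sum was 932.7 to 1398 units in WT without UV and 860.4 to 2184 after it, and in KO 1334 to 1809 and 746.8 to 2092. The part of these cell types in the values of the miR-181 members was not tested.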

How the data were processed

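Group and replicate number came from the sample titles. The members and the marker lists were chosen with earlier results of these data known. Values in the deposited scanner output are linear intensity, not yet made comparable between arrays. Agilent Feature Extraction 9.5.3.1, per the file headers, had subtracted background and summed the spots of each miRNA. A deposited table of log2 values, to which the authors had applied an invariant set and quantiles, was an alternative here. Its offset before logarithms is not stated in the sources used here.

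Quantile normalization over 16 arrays was applied to total gene signals (limma 3.58.1, R 4.3.3), floored at 19.4 units and put on log2, which understates changes of dim miRNAs. Testing needed detection on every array of some group, which left 228 miRNAs, fitted in a group-means model (lmFit and eBayes) without a replicate block (same-numbered arrays deviated together, at r of 0.132 to 0.32, in the WT UV comparison alone, and the labels give each its own animal), with Benjamini-Hochberg adjustment over all 228. The code was tested on simulated data. Single members were also tested by exact two-sided permutation. Named were the 4 members, their passenger strands, the 3 miRNAs most like miR-181a and miR-181b, and the marker miRNAs. Alternatives changed the scaling, signal, filter, floor, block, moderation, slide row, threshold, test, probe and arrays. Arrays give no counts, so their number limits the precision. The scanner coordinates are on mm9, and those printed are RefSeq's.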

Additional observations from a re-analysis of the deposited data

Results flagged for a closer look

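In KO UV the highest array of miR-181d, at 6.89 (log2), stood apart from the other 3, which hold the same value by quantile normalization. By chance about 1 in 20 of the 16 member and group sets examined would stand out in this way.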

How the results depend on the processing

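Over 20 member differences, 623 of 712 alternative values kept direction and side of the threshold. 28 gained a call, 14 lost it and 47 changed sign, 26 of these in the interaction, where values lie near 0.

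The count of members called after UV in WT, 1 as reported, was 2 with the invariant set, with quantiles within each slide and with no normalization, and 0 at the methods' threshold and at an adjusted p under 0.01. With an array left out it was 1 to 2, and 2 without KO UV replicate 3 or 4 (miR-181c then at 0.36, limma adjusted p of 0.0281 and 0.0379). In KO, 1 as reported, it was 2 with the 75th percentile of detected miRNAs, within each slide and by the shorter probe, 3 with no normalization, and 0 by normexp, the longer probe, the methods' threshold and an adjusted p under 0.01. With no normalization the count was 4 between genotypes without UV and 4 in the interaction. Among all 228 miRNAs, 42 were called higher and 26 lower after UV in KO as reported. These were 22 and 33 with the 75th percentile of detected miRNAs, and 24 and 56 within each slide. They were 40 and 26 by the shorter probe, and 6 and 124 with no normalization. In WT they were 21 and 16 as reported, 13 and 45 with the invariant set and 14 and 45 within each slide. With no normalization they were 36 and 7 in WT. A count of 1 can hide another member. In WT the call was that of miR-181b with either 75th percentile, of miR-181a by the shorter probe and of miR-181c by the longer. In KO it was that of miR-181b with the 75th percentile of all miRNAs and with the invariant set (-0.36, limma adjusted p = 0.0223). The WT count of 2 within each slide and with the invariant set was miR-181a and miR-181b, both lower. With the invariant set they were at -0.44 and -0.47 (limma adjusted p of 0.0485 and 0.00574). With only the groups compared, miR-181d lost its call in WT (limma adjusted p = 0.0647) and miR-181c gained it (0.0449).

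Sign changes without normalization were, for KO minus WT, 0.52 for miR-181a without UV and -0.18 for miR-181b and -0.20 for miR-181d after it. For UV minus none they were 0.023 for miR-181a in WT and -0.40 for miR-181c and -0.39 for miR-181d in KO. In the interaction they were 0.81 for miR-181b and 0.81 for miR-181d. Without normalization miR-181d was thus called lower after UV in KO (limma adjusted p = 0.0269) and higher in WT, by 0.41 (limma adjusted p = 0.0482). The median over the 228 was then -0.48 in KO and 0.21 in WT. With the invariant set, KO minus WT without UV was -0.039, -0.050 and -0.072 for miR-181b, miR-181c and miR-181d, UV minus none in WT -0.047 for miR-181d, and the interaction of miR-181a -0.047. Within each slide, UV minus none was -0.014 in WT and -0.022 in KO for miR-181d and -0.055 in KO for miR-181c, and the interaction of miR-181d 0.0088. By normexp, KO minus WT was 0.020 for miR-181a without UV and -0.0042 for miR-181d after it, and the interaction 0.043 for miR-181b and 0.021 for miR-181d. By the shorter probe, UV minus none of miR-181d was -0.038 in WT and -0.042 in KO, KO minus WT without UV of miR-181a 0.00049, and the interaction 0.021 for miR-181b and 0.0037 for miR-181d. By the longer probe KO minus WT without UV of miR-181a was 0.043. The interaction was 0.051 for miR-181b and 0.034 for miR-181d with slide row as a covariate, and 0.0028 for miR-181d in the series table. With an array left out, the interaction ranged from -0.042 to 0.16 for miR-181a, -0.089 to 0.049 for miR-181b and -0.043 to 0.062 for miR-181d, and KO minus WT without UV from -0.14 to 0.065 for miR-181a. The cause was not tested in any of these.

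The replicate numbers do not pair the animals by the labels: deviations of same-numbered arrays correlated at -0.35 to 0.32 over the 4 group comparisons, and at 0.13 to 0.32 in UV minus none in WT, the only 1 with every value over 0.1. With the replicate block the counts of members called stayed at 0, 0, 1, 1 and 0, and miR-181d had limma adjusted p-values of 0.0317 in WT and 0.0275 in KO. The block changed no call of a member.

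Over the alternatives the count of all miRNAs called ranged from 15 to 59 in WT and 16 to 130 in KO for UV, and from 0 to 111 and 0 to 138 for KO minus WT without UV and the interaction. The software's error of a single value, 7.59% to 12.7% of the signal by member and group, limits how small a change can be read.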
